A study of Homo sapiens with 4 samples.

Results

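The unfolded protein response and the integrated stress response were examined through 38 genes: the XBP1, ATF6 and ATF4 branch sensors and their targets. They were taken by gene symbol from the 26364 symbols of a table of RNA sequencing counts, and all 38 were found and passed the filter on low counts, as did 15599 genes in all. The cells were Ishikawa, a human endometrial adenocarcinoma line, carrying the Y537S allele of ESR1, which encodes estrogen receptor alpha. Every library came from such mutant cells, so no comparison here bears on the mutation itself. The labels name 2 clones, each with 1 library of cells given vehicle (0.1% DMSO) and 1 of cells given 10 nM estradiol (E2) for 8 h, after at least 5 days in hormone-deprived medium. The DMSO group and the E2 group therefore held 2 libraries each. The count columns carry the tags A4 and B212, which are taken here as the 2 clones, although no label says which is clone 1. Each tag stands for 1 clone, so a difference between tags is a difference between these cells and need not hold for other clones. Nothing says whether the libraries of a tag came from separate cultures, and p-values measure only the spread between these libraries.

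As background, proteins entering the endoplasmic reticulum (ER) are folded there by chaperones such as HSPA5, and unfolded protein sets off 3 sensors in the ER membrane, ERN1 (IRE1), EIF2AK3 (PERK) and ATF6. ERN1 splices XBP1 mRNA into the form that encodes an active transcription factor, ATF6 is cut to release one, and EIF2AK3 phosphorylates the translation factor eIF2, which slows protein synthesis and favours translation of ATF4. EIF2AK4 (GCN2) reaches the same eIF2 site when amino acids are short, so ATF4 targets for amino acid synthesis answer to both. Gene counts show neither XBP1 splicing, ATF6 cleavage nor ATF4 translation, and these steps were not measured.

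The promoters of these genes are known for short elements that the response factors bind, and sites found in the windows of genes that the comparisons below turn on are shown here. RefSeq promoter windows (assembly GRCh38.p14, 250 bases before to 50 after an annotated start) were found for 36 of the 38 genes and searched on both strands. The ER stress response element (ERSE) was searched as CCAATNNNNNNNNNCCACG, its variant ERSE-II as ATTGGNCCACG, the unfolded protein response element (UPRE) as TGACGTGG and the C/EBP-ATF response element (CARE), which ATF4 dimers bind, as TGATGNAA. An ERSE was in 7 of the 36 genes and in 0.142% of the 11250 tested genes that had a window. By the same shares, an ERSE-II was in 3 genes and 0.124%, a CARE in 4 genes and 2.83%, and a UPRE in 1 gene and 1.2%. HSPA5 and CRELD2 held an ERSE, as did XBP1 and CALR. The motif is in capitals, and CRELD2 and CALR hold it on the strand opposite to the gene:
HSPA5: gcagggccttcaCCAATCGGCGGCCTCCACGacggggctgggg
CRELD2: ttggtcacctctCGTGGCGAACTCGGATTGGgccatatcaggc
XBP1: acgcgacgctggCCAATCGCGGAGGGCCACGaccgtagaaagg
CALR: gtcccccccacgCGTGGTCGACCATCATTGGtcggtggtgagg
These 4 stretches lie at chr9:125241379-125241421 on the minus strand, chr22:49918542-49918584 on the plus strand, chr22:28800591-28800633 on the minus strand and chr19:12938372-12938414 on the plus strand. The HSPA5 motif began 66 bases and the XBP1 motif 52 bases before the annotated start. HSP90B1, CANX and PDIA6 were the other genes with an ERSE, and HSP90B1 held it at 2 positions.

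HERPUD1, HYOU1 and SDF2L1 held an ERSE-II, the last 2 on the opposite strand. ASNS and CHAC1 held a CARE, CHAC1 on the opposite strand:
HERPUD1: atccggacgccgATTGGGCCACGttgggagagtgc
HYOU1: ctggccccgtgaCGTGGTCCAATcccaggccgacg
SDF2L1: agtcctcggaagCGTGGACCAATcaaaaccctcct
ASNS: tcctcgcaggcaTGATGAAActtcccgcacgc
CHAC1: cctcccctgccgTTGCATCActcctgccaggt
They lie at chr16:56932013-56932047 on the plus strand, chr11:119057368-119057402 on the minus strand, chr22:21642102-21642136 on the plus strand, chr7:97872457-97872488 on the minus strand and chr15:40953250-40953281 on the plus strand. HYOU1 held a further ERSE-II 79 bases before its start, and its ERSE-II shown here overlaps the only UPRE found among the 36 genes. HERPUD1 and ATF3 also held a CARE. None of the 4 motifs was in the windows of 23 genes, which says only that these letters are not there. A match is a description of sequence and no evidence of binding in these cells.

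The libraries held 71575816 to 85222856 counts, and the 38 genes took 1.4% to 1.5% of them. The lowest count of any of these genes in a library was 265, for ERN1. All 10 endometrial epithelial markers examined were measured, with a summed level of 2300 to 2443 normalised CPM (counts scaled to library size) in the A4 libraries and 2872 to 3135 CPM in the B212 libraries. Of them 8 were higher and 0 lower in B212, beside 25.2% and 25.8% of all genes in the comparison of tags below. Stromal markers summed to 96.0 to 132 CPM in A4 and 38.6 to 46.7 CPM in B212, most of it COL1A1, while DCN had at most 1 count and LUM at most 5 counts in a library. Of the 5 stromal markers tested, COL1A1, COL1A2 and COL3A1 were lower in B212 and THY1 was higher (log2 fold change 1.36). Leukocyte markers summed to at most 2.64 CPM, with CD3E at 0 counts, and endothelial markers to at most 5.11 CPM, with PECAM1 at 0 counts in all 4 libraries. VWF and KDR, the 2 endothelial markers tested, were higher in B212 (0.58 and 1.17 on the log2 scale). VWF had 167 to 372 counts in a library and KDR only 16 to 52. Epithelial, stromal and endothelial markers thus differed between the tags, where 51% of all genes were called. The part of these markers in the tag comparison was not tested.

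Levels among the genes spanned a wide range when expressed per kilobase of the longest coding transcript, averaged over the 4 libraries. The abundant ER-resident folding proteins were at the top. CALR, the calcium-binding lectin chaperone, had 1220 CPM per kb, HSP90B1, the ER member of the HSP90 family, 710 CPM per kb, and CANX, the membrane-bound lectin chaperone, 561 CPM per kb. PSAT1, an enzyme of serine synthesis, followed with 281 CPM per kb, close to HSPA5 with 278 CPM per kb. The ERN1 sensor was lowest with 0.604 CPM per kb, below VLDLR (1.94 CPM per kb) and ATF3 (3.09 CPM per kb). The plot of levels by library shows the CPM of every gene, not corrected for length.

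**Figure D1:**
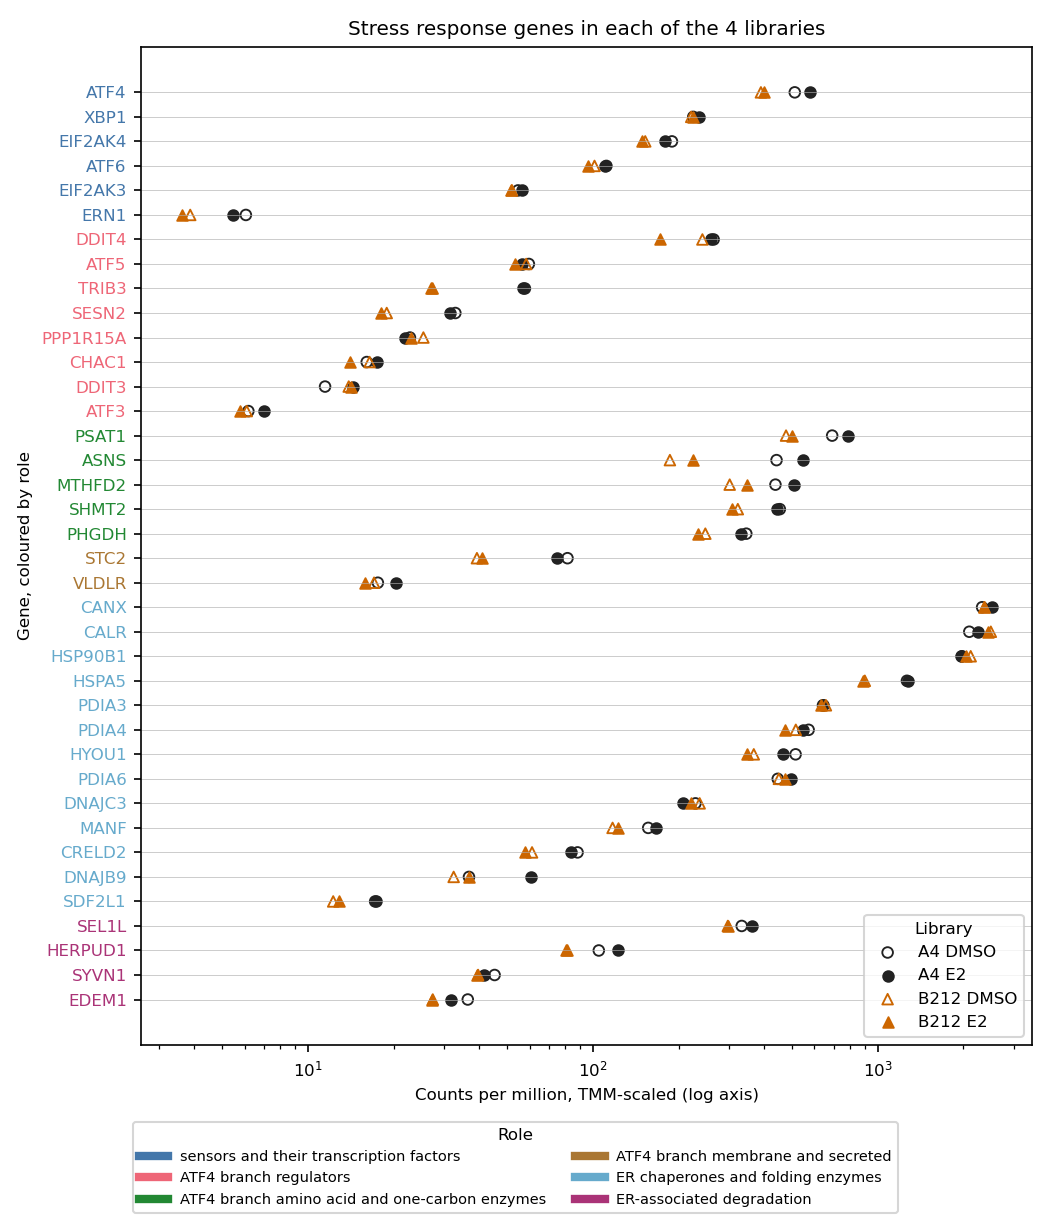
CPM (log axis) of the 38 stress response genes in each of the 4 libraries, grouped by role; circles are A4, triangles B212, open symbols DMSO and filled symbols E2. In 27 genes both B212 symbols lie left of both A4 symbols, and in 3 (PPP1R15A, HSP90B1 and CALR) both lie right of them.

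The first comparison asked how the stress response genes differed between the B212 and A4 cells, with treatment as a covariate. Of the 38 genes, 23 were lower in B212 and 0 were higher (quasi-likelihood test of edgeR, p adjusted by Benjamini-Hochberg over all genes tested, threshold 0.05). Among all 15599 genes, 25.8% were lower and 25.2% higher by the same rule, 51% in all. With library size as the only scaling, 4761 genes were higher and 3176 lower in B212, and of the 38 genes 20 were lower and 1 (CALR) was higher. With the trend on length and GC taken out, 23 were lower and 2 (CALR and PPP1R15A) were higher. Over all genes that fit had 28.9% lower and 28.2% higher. In bulk RNA, fewer cells that express a gene and less RNA per cell cannot be told apart. The median log2 fold change was -0.30 over the 38 genes and 0.0042 over all genes. Both B212 libraries lay below both A4 libraries for 27 of the 38 genes, against 32.8% of all genes, and above them for 3, against 34.7% of all genes. Genes both called lower and at a log2 fold change of -0.5 or less made up 10 of the 38 (26.3%) and 9.94% of all genes. Among the genes called lower, they were 10 of 23 here and 1550 of 4023 over all genes. Without the B212 DMSO or the B212 E2 library, fewer of the 23 were past the threshold, as were fewer of all genes. These fits have no treatment term, leave 1 library of a tag and assume it to vary like the others. All 23 remained lower in B212 in every one of the 12 other fits, and ASNS, ERN1, PSAT1, SESN2, STC2 and TRIB3 were past the threshold in each of them.

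**Figure D2:**
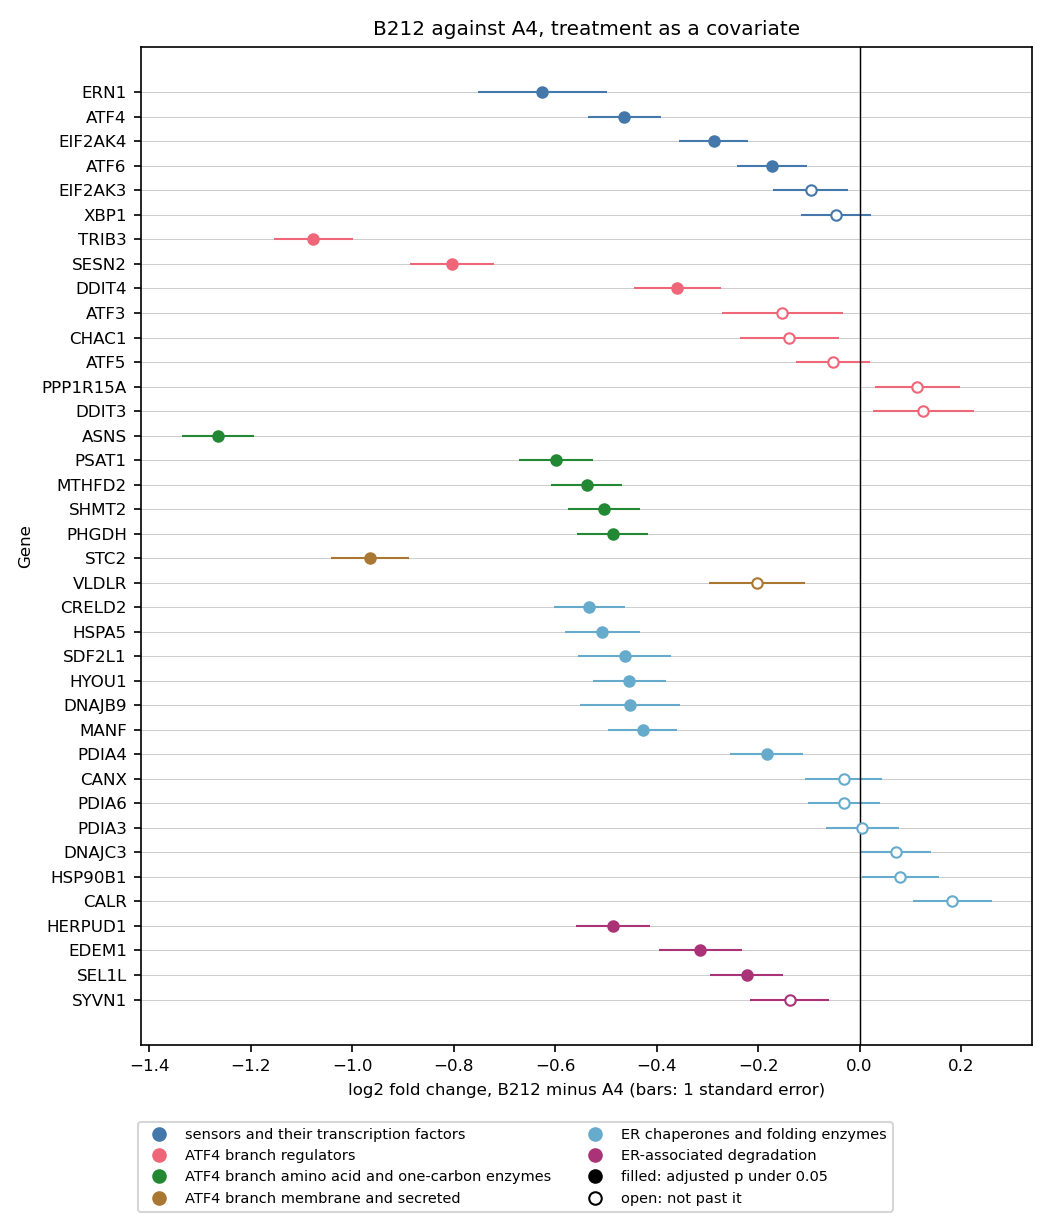
Log2 fold change of B212 minus A4 for each gene, with 1 standard error, from the fit with treatment as a covariate; filled points are past an adjusted p of 0.05. All 23 filled points lie left of 0, with ASNS (-1.26), TRIB3 (-1.08) and STC2 (-0.96) farthest out.

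The amino acid and one-carbon enzymes were all lower in B212, 5 of 5, where 25.8% of all genes were lower. ASNS, which makes asparagine and is a textbook ATF4 target, had 442 CPM (A4 DMSO), 548 CPM (A4 E2), 187 CPM (B212 DMSO) and 225 CPM (B212 E2). Both B212 libraries were under both A4 libraries, with a log2 fold change of -1.26 ± 0.071 (SE), 2.40-fold lower, and an edgeR adjusted p of 1.08e-11. PSAT1, in the same order of libraries, had 692, 790, 477 and 500 CPM, and a log2 fold change of -0.60 ± 0.073. PHGDH, the first enzyme of serine synthesis, had 346, 331, 248 and 234 CPM. The mitochondrial enzymes that pass on the one-carbon unit of serine followed, SHMT2 with 454, 442, 323 and 309 CPM and MTHFD2 with 438, 508, 303 and 348 CPM. In all 5 enzymes both B212 libraries lay below both A4 libraries, as they did for 32.8% of all genes. The log2 fold changes of PHGDH, SHMT2 and MTHFD2 lay between -0.54 and -0.49, and their edgeR adjusted p-values were at most 8.53e-06. Without the B212 E2 library the edgeR calls of PHGDH and SHMT2 were lost, and without the B212 DMSO library that of MTHFD2.

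Of the 8 regulators downstream of ATF4, 3 were lower in B212 and 0 higher, where 25.8% and 25.2% of all genes were. TRIB3, a pseudokinase that restrains ATF4 and DDIT3, had 57.8 and 57.0 CPM in A4 and 27.4 and 27.0 CPM in B212, each with DMSO first, as in the pairs of values that follow. Its log2 fold change was -1.08 ± 0.077 (edgeR adjusted p = 5.24e-10). SESN2, a leucine-binding inhibitor of mTORC1 signalling, had 32.9 and 31.6 CPM in A4 and 18.9 and 18.1 CPM in B212, a log2 fold change of -0.80 ± 0.083. DDIT4, another mTORC1 inhibitor, had 266 and 259 CPM in A4 against 243 and 173 CPM in B212, a log2 fold change of -0.36 ± 0.086. The B212 E2 library was the lowest of the 4. Without it the log2 fold change was -0.11 and the DDIT4 call was lost, as it was without A4 DMSO (-0.32) or A4 E2 (-0.36). The other 5 regulators did not pass the threshold. DDIT3, the pro-apoptotic factor also called CHOP, had 11.5 and 14.4 CPM in A4 and 13.9 and 14.2 CPM in B212, so the tags overlapped. PPP1R15A, the phosphatase subunit that restores eIF2, had a log2 fold change of 0.11 ± 0.084 with both B212 libraries above both A4 libraries, and was called higher once the length and GC trend was taken out (0.19, edgeR adjusted p = 0.0235). The log2 fold changes were -0.14 for CHAC1, a glutathione-degrading enzyme, -0.15 for ATF3 and -0.052 for ATF5, both transcription factors, and their edgeR adjusted p-values were 0.252 to 0.578.

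STC2, a secreted glycoprotein induced through ATF4, had 81.6 and 74.9 CPM in A4 and 39.2 and 40.9 CPM in B212. Its levels in the tags did not overlap, with a log2 fold change of -0.96 ± 0.076 (edgeR adjusted p = 2.18e-09). VLDLR, a lipoprotein receptor, differed by -0.20 ± 0.095 on the log2 scale and did not pass the threshold, with an edgeR adjusted p of 0.0823. It was called lower once the length and GC trend was taken out (-0.23, adjusted p = 0.0187) and with no filter on low counts (-0.22, adjusted p = 0.0416).

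Of the sensors and their transcription factors, 4 of 6 were lower in B212, where 25.8% of all genes were lower. ATF4 had 512 and 578 CPM in A4 and 389 and 400 CPM in B212, a log2 fold change of -0.46 ± 0.073. ERN1 had 6.06 and 5.49 CPM in A4 and 3.87 and 3.62 CPM in B212, a log2 fold change of -0.63 ± 0.13. EIF2AK4 had 189.7 and 179 CPM in A4 and 153 and 149 CPM in B212, and ATF6 had 112 and 111 CPM in A4 and 101 and 95.9 CPM in B212. In these 4 genes both B212 libraries lay below both A4 libraries, against 32.8% of all genes. Smaller differences than for ATF4 were found for EIF2AK4 (-0.29 ± 0.069) and ATF6 (-0.17 ± 0.069), with edgeR adjusted p-values of 0.00162 and 0.0434. XBP1 had 225 and 236 CPM in A4 and 222 and 225 CPM in B212, and its log2 fold change was -0.047 ± 0.069. EIF2AK3 differed by -0.097 ± 0.074, and neither it nor XBP1 passed the threshold. The calls of ATF4, ATF6 and EIF2AK4 were each lost without either B212 library, that of EIF2AK4 also without the A4 DMSO library, and that of ATF6 when any 1 of the 4 libraries was left out, with DESeq2 and with library size as the only scaling.

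Of the 13 ER chaperones and folding enzymes, 7 were lower in B212 and 6 did not pass the threshold, where 25.8% of all genes were lower. HSPA5, the ER HSP70 that also holds the sensors inactive, had 1267 and 1281 CPM in A4 and 901 and 891 CPM in B212, a log2 fold change of -0.51 ± 0.074 (edgeR adjusted p = 1.00e-05). Its nucleotide exchange factor HYOU1 had 515 and 466 CPM in A4 and 367 and 348 CPM in B212, a log2 fold change of -0.45 ± 0.071. MANF and CRELD2 are small proteins known to be secreted under ER stress. MANF had 157 and 166 CPM in A4 and 117 and 123 CPM in B212, CRELD2 had 88.5 and 83.9 CPM in A4 and 61.2 and 57.9 CPM in B212, and their log2 fold changes were -0.43 ± 0.068 and -0.53 ± 0.071. SDF2L1, a cofactor of the HSPA5 cycle, had 17.2 and 17.4 CPM in A4 and 12.3 and 12.9 CPM in B212, a log2 fold change of -0.46 ± 0.092. PDIA4, a disulfide isomerase, had 572 and 549 CPM in A4 and 516 and 472 CPM in B212. It differed by -0.18 ± 0.072 with an edgeR adjusted p of 0.0387, and its call was lost when any 1 of the 4 libraries was left out, with DESeq2, with library size as the only scaling and without the length and GC trend. DNAJB9, a J-domain cochaperone of HSPA5, was called lower, yet its tags overlapped: 36.8 CPM (A4 DMSO), 60.8 CPM (A4 E2), 32.5 CPM (B212 DMSO) and 36.9 CPM (B212 E2). The A4 E2 library stood above the other 3. Without it the log2 fold change was -0.093 and the DNAJB9 call was lost, as it was without the B212 DMSO library (-0.43).

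The 3 most abundant chaperones per kilobase were not among the genes called. CALR had 2097 and 2255 CPM in A4 and 2496 and 2442 CPM in B212, both B212 libraries above both A4 libraries, with a log2 fold change of 0.18 ± 0.077 and an edgeR adjusted p of 0.0536. With library size as the only scaling, or after removal of a trend on length and GC, CALR was past the threshold as higher in B212. HSP90B1 differed by 0.081 ± 0.075, CANX by -0.032 ± 0.077, PDIA3, the isomerase that works with CALR and CANX, by 0.0052 ± 0.072 and PDIA6 by -0.031 ± 0.072 on the log2 scale. DNAJC3, an inhibitor of EIF2AK3 that also serves as an HSPA5 cochaperone, differed by 0.071 ± 0.069. A pseudogene copy of PDIA3 in the table held up to 9.08% of the PDIA3 count, and the division of reads between them is not known. XBP1, ATF4, ASNS, PSAT1, MTHFD2 and HSPA5 also have annotated pseudogene copies. Of these, 1 copy of MTHFD2 was in the table, with at most 3 counts in a library.

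Among the 4 genes of ER-associated degradation, the route that returns misfolded proteins to the cytosol for the proteasome, 3 were lower in B212. Over all genes 25.8% were lower. HERPUD1, a membrane protein of the degradation complex, had 105 and 123 CPM in A4 and 80.9 and 81.1 CPM in B212, a log2 fold change of -0.49 ± 0.073. EDEM1, which marks misfolded glycoproteins, had 36.4 and 31.8 CPM in A4 and 27.5 and 27.3 CPM in B212 and differed by -0.31 ± 0.082. SEL1L, the scaffold of the ubiquitin ligase SYVN1, had 333 and 364 CPM in A4 and 298 and 299 CPM in B212 and differed by -0.22 ± 0.071. SYVN1 itself differed by -0.14 ± 0.078 and did not pass the threshold. The calls of HERPUD1, EDEM1 and SEL1L were lost without either B212 library, as were those of HSPA5, HYOU1, MANF and SDF2L1. That of CRELD2 was lost without the B212 E2 library, that of EDEM1 also without the A4 DMSO library and that of SEL1L also without the A4 E2 library and with library size as the only scaling. A fit of all 4 libraries with no treatment term lost the calls of ATF6, DDIT4, DNAJB9, EDEM1, EIF2AK4, PDIA4 and SEL1L.

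The other genes of the pathway were examined as 5 lists with 133 genes, of which 131 were tested. In B212, 71 of the 131 were lower and 13 higher, and the median log2 fold change was -0.21, where 25.8% of all genes were lower and 25.2% higher. The further ATF4 targets, among them aminoacyl-tRNA synthetases and amino acid transporters, had 17 of 26 lower and 4 higher, with a median of -0.45. Degradation genes had 17 of 27 lower and 3 higher, translocation and signal peptide processing genes 12 of 24 lower and 0 higher, sensor and eIF2 control genes 12 of 24 lower and 3 higher, and further folding genes 13 of 30 lower and 3 higher. The rule for naming gave SEC63, a partner of the translocon, with 271 and 261 CPM in A4 and 138 and 133 CPM in B212. It also gave ATF4 targets: PCK2, the mitochondrial phosphoenolpyruvate carboxykinase (-0.96 ± 0.083), the glycine transporter SLC6A9 (-1.06 ± 0.094), the glycyl-tRNA synthetase GARS (-0.79 ± 0.073) and the mitochondrial folate enzyme ALDH1L2 (-0.75 ± 0.070), as log2 fold changes. Before the cut to 5 in each direction, 16 genes lower and 4 genes higher in B212 met this rule. Of the 4 higher genes, 3 were also from the ATF4 target list. They were KLHL24 (0.92 ± 0.078), the AP-1 repressor JDP2 (0.61 ± 0.078) and the secreted cytokine GDF15 (0.67 ± 0.14). The other was the stress-inducible chromatin protein NUPR1 (0.98 ± 0.089). The 9 edgeR adjusted p-values were at most 4.13e-04.

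**Figure D3:**
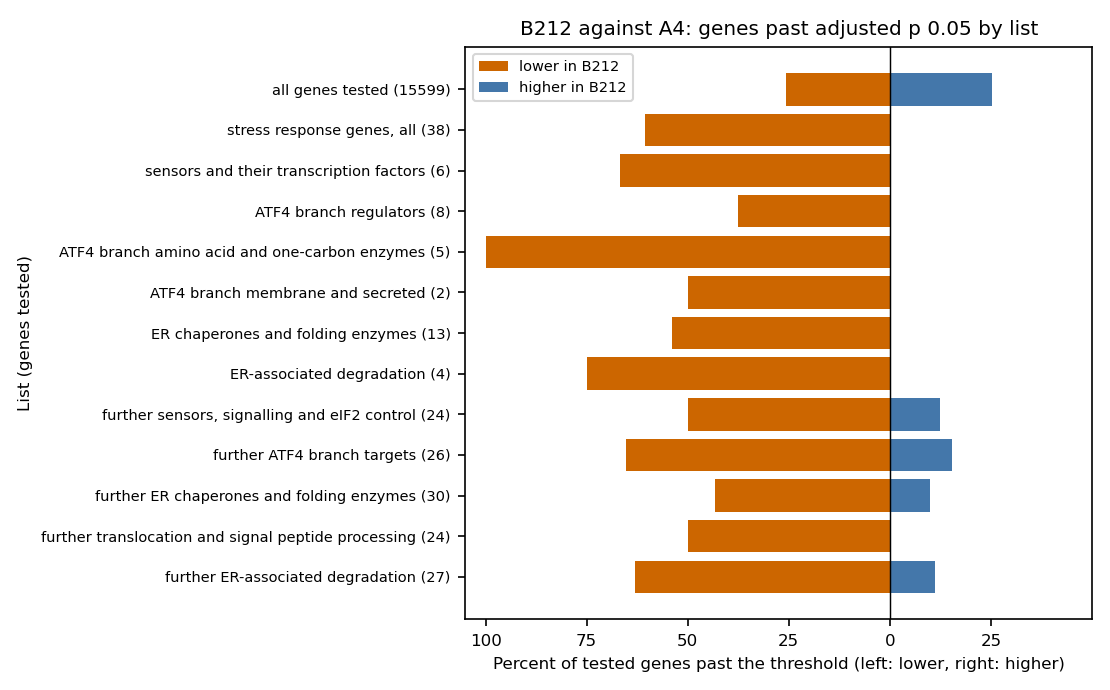
Percent of the tested genes of each list past an adjusted p of 0.05 in B212 against A4, with genes lower in B212 to the left and higher to the right. All genes tested split almost evenly (25.8% and 25.2%), while the 38 stress response genes show 60.5% to the left and 0 to the right.

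The second comparison asked whether 8 h of E2 changed the stress response genes while the mutant receptor was present. Without a block for the tag, edgeR's quasi-likelihood test called 0 of the 38 genes, with 0 at an unadjusted p under 0.05, and DESeq2 and limma-voom also called 0. Over all genes this fit called 0% (0.962%, or 150 genes, had an unadjusted p under 0.05), and the spread within each group then held the difference between the tags. A count of 0 in that fit does not show that E2 changed none of these genes. With the tag as a block, 2 of the 38 genes rose and 0 fell, against 9.56% of all genes called, 6.13% higher and 3.44% lower. A share of 2 in 38 is no larger than that background. The median log2 fold change over the 38 genes was -0.022 with the block, beside -0.0081 over all genes.

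DNAJB9 and ASNS were the 2 genes that rose with the tag as a block. DNAJB9 went from 36.8 to 60.8 CPM in A4 and from 32.5 to 36.9 CPM in B212, log2 changes of 0.72 and 0.18, so most of its rise came from A4. Its log2 fold change with the block was 0.46 ± 0.098 (SE, edgeR adjusted p = 0.00760), and without it 0.50 ± 0.28 (adjusted p = 0.9999). Leaving out the A4 E2 library took the latter value to 0.075, and leaving out the B212 E2 library took it to 0.81. ASNS went from 442 to 548 CPM in A4 and from 187 to 225 CPM in B212, log2 changes of 0.31 and 0.27. Its log2 fold change with the block was 0.29 ± 0.070 (edgeR adjusted p = 0.0145), and without it 0.30 ± 0.61 (adjusted p = 0.9999). The latter value was -0.50 when A4 E2 was left out, -0.18 when B212 DMSO was, 1.05 when A4 DMSO was and 0.80 when B212 E2 was. For both genes these fits had no block and unequal tags, so their values also hold the gap between the tags. The E2 rise of ASNS was smaller than its gap between the tags, since the B212 E2 library remained under the A4 DMSO library. Both genes were past the threshold in each of the 5 other fits with the block, with adjusted p-values up to 0.0444 for DNAJB9 and 0.0418 for ASNS.

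MTHFD2 and DDIT4 came close to the threshold. MTHFD2 went from 438 to 508 CPM in A4 and from 303 to 348 CPM in B212, log2 changes of 0.21 and 0.20, with an edgeR adjusted p of 0.0669 with the block. DDIT4 went from 266 to 259 CPM in A4 and from 243 to 173 CPM in B212, log2 changes of -0.036 and -0.49, with an adjusted p of 0.0596. With the length and GC trend removed beside the block, MTHFD2 was called higher (0.0426) and DDIT4 lower (0.0171, both edgeR adjusted p-values). With the block and library size as the only scaling, DDIT4 was called lower as well (0.0156). Other enzymes of the group did not pass the threshold: PSAT1 had a log2 fold change of 0.13 ± 0.073, PHGDH -0.074 ± 0.070 and SHMT2 -0.052 ± 0.070 with the block.

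The remaining genes had small E2 changes in both tags. In 34 of the 38 the log2 change was within 0.25 of 0 in A4 and in B212 alike, the exceptions being DNAJB9, ASNS, DDIT4 and DDIT3, which changed by 0.32 in A4 and 0.025 in B212. Direction was shared by the tags in 29 genes, 12 higher and 17 lower, and opposite in 9. Among all genes 33.3% were higher in both tags, 36.8% lower in both and 29.9% opposite. HSPA5 had a log2 fold change of 8.39e-05 ± 0.074 with the block, XBP1 0.043 ± 0.069, ATF4 0.11 ± 0.073, HERPUD1 0.11 ± 0.073 and DDIT3 0.17 ± 0.10, and none of these passed the threshold.

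**Figure D4:**
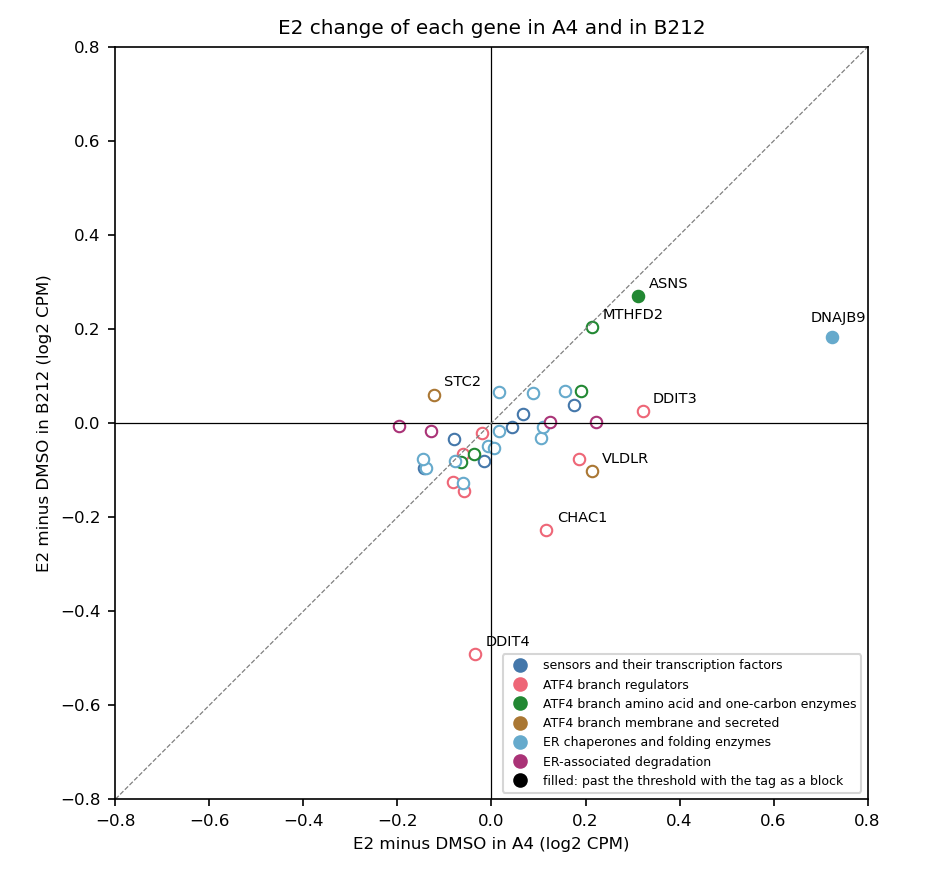
E2 minus DMSO log2 change of each gene in A4 (horizontal) and in B212 (vertical), from 1 library per arm; the dashed line marks equal changes, and filled points are past an adjusted p of 0.05 with the tag as a block. ASNS lies near the dashed line (0.31 and 0.27), DNAJB9 far to its right (0.72 and 0.18), and most genes cluster around 0.

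Of the 131 other genes of the pathway, 12 rose and 1 fell with E2 when the tag was a block, and 0 were called with no block. That is 9.16% higher and 0.763% lower, beside 6.13% and 3.44% of all genes. The 24 translocation and signal peptide processing genes held 6 of those that rose, their list had a median log2 fold change of 0.17, and no list among the others held more than 3. They were the signal peptidase subunits SEC11C and SEC11A, the translocon subunits SEC61G and SEC61B, SRPRB of the signal recognition particle receptor and SRP19 of the particle itself. Their log2 fold changes ran from 0.23 to 0.41. With the length and GC trend removed, SEC11C (edgeR adjusted p = 0.00668) and SRPRB (0.00998) were called again, and the median of the list was 0.061. The other genes that rose were PRDX4, an ER peroxidase, HSPA13, PPIB, UFD1L, ERLEC1 and PSPH, the last step of serine synthesis, and NPLOC4 fell. The calls of PPIB, ERLEC1 and NPLOC4 were lost once the length and GC trend was taken out. Their edgeR adjusted p-values were then 0.0973, 0.105 and 0.155. In that fit 7 of the 131 genes were higher and 1 lower (5.34% and 0.763%), beside 5.24% and 2.64% of all genes. None reached a log2 fold change of 0.5, so the rule for naming took none of these 13 genes, and they are named after their values were seen.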

How the data were processed

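The authors deposited a table of unnormalised counts, 1 row per gene symbol, and library totals differ. The submitters' processing notes name HISAT2, SAMtools, featureCounts, DESeq2 and the build hg19, and the strand setting and annotation are not given in the sources used here, so overlapping and antisense genes are uncertain. Another 4 columns of per-sample values match no sample listed and were not used.

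Genes were kept by filterByExpr of edgeR 4.0.16 (minimum count 10), TMM-scaled and tested with edgeR's quasi-likelihood test, two-sided, with Benjamini-Hochberg adjustment over all 15599 genes and a threshold of 0.05. E2 was compared with DMSO with no block, and B212 with A4 with treatment as a covariate. Standard errors are the absolute log2 fold change over the square root of F. Library values are given as CPM on TMM-scaled library sizes, and changes within a tag as differences of log2 CPM with a prior count of 2. The tags pair the libraries, being taken as clones: same-tag deviations from the group means correlated across genes (Pearson r = 0.871), so a tag-blocked fit is given beside the other where it changes a call. Alternatives used DESeq2 1.42.0, limma 3.58.1 (voom), other scalings and filters, and removal of a smooth length and GC trend (mgcv 1.9.3) from GENCODE 29, found for 96.6% of the genes tested. Fits were tested on simulated data, where the E2 fit with no block did not recover the changes put in, and the fit with the block recovered most. R 4.3.3, Python 3.11.15 and matplotlib 3.10.9 were used.

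The members and lists were chosen with earlier results of these data known. All 38 genes are accounted for. Other pathway genes were named if called, with a log2 fold change at least 0.5 from 0 and a mean of at least 50 counts, up to 5 by smallest p in each direction. ERO1L and ERO1LB were looked up as ERO1A and ERO1B.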

Additional observations from a re-analysis of the deposited data

Results flagged for a closer look

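In 9 of the 38 genes the E2 change had opposite signs in A4 and B212, against 29.9% of all genes. Each tag had 1 library per treatment, so these differences were not tested, and intervals below cover counting error only. The difference in log2 change, B212 minus A4, was -0.34 for CHAC1 (0.12 in A4 and -0.23 in B212), -0.32 for VLDLR (0.21 and -0.10) and -0.26 for ATF3 (0.19 and -0.077). It was 0.18 for STC2, which went down in A4 (-0.12) and up in B212 (0.061). It was -0.14 for CALR, -0.12 for CANX, -0.058 for PDIA3, -0.053 for EIF2AK3 and -0.032 for HSPA5, whose changes in either tag lay within 0.11 of 0. The 95% counting interval included 0 for EIF2AK3 (-0.14 to 0.034) and not for the other 8, of which that of ATF3 came closest (-0.52 to -0.0083). The 9 genes were picked for opposite signs, which favours a difference away from 0, so the intervals are no support for one.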

How the results depend on the processing

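Besides the block with an adjusted p under 0.01, which was added after the data were seen, these alternatives were planned. With no block, E2 called 0 genes under both other scalings, both filters, limma-voom and each left-out library, and 1 gene with DESeq2. The tag as a replicate block called 1492 genes and 2 of the 38. With the block, DESeq2 size factors gave 717 and 2, library size only 1686 (911 higher, 775 lower) and 3, DESeq2 562 and 2, limma-voom 1138 and 2, the length and GC trend removed 1229 and 4, and an adjusted p under 0.01 gave 415 and 1. For 7561 genes DESeq2 with the block gave no adjusted p. In the tag comparison 7950 genes (3927 higher, 4023 lower) became 4456 with no treatment term, 7937 (4761 higher, 3176 lower) with library size only, and 3094 to 5639 with a library left out, where 8 to 18 of the 38 stress response genes were called. The other alternatives gave 20 to 25 of them, or 16 with no treatment term. The cause of these changes was not tested.

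The genes called in the tag comparison kept their sign in all of its alternatives. Signs turned there for XBP1 (0.020 with library size only, 0.021 with the trend removed), ATF5 (0.015 and 0.023), CANX (0.035) and PDIA6 (0.036) with library size only, and PDIA3 (-0.0039 with DESeq2 and with its size factors, -0.017 with no filter, -0.0025 with the trend removed). Left-out libraries gave -0.14 to 0.0095 (ATF5), -0.086 to 0.015 (CANX), -0.034 to 0.28 (DDIT3), -0.0063 to 0.14 (DNAJC3), -0.048 to 0.032 (PDIA3) and -0.11 to 0.039 (PDIA6).

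For E2 with no block 0 of the 38 genes were called, and signs turned often. HSPA5 turned to -0.0043 with DESeq2 and with its size factors, -0.0039 with at least 10 counts in every library, -0.021 with library size only, and with the replicate block to -0.0076 with DESeq2 and with its size factors, -0.020 with library size only and -1.61e-04 with limma-voom. EIF2AK3 became -0.0029 with library size only, and -0.0030 with the block as well, and TRIB3 0.0037 with limma-voom. With the block and the trend removed, XBP1 was -0.014, ERN1 0.018, EIF2AK4 0.016, TRIB3 0.047, SESN2 0.051, STC2 0.085, SDF2L1 -0.051, MANF -0.019, HYOU1 0.014 and SYVN1 0.023. Leaving out a library unbalances the tags, and with no block the E2 log2 fold changes then ranged from -0.50 to 1.05 (ASNS), -0.10 to 0.20 (ATF3), -0.19 to 0.36 (ATF4), -0.17 to 0.053 (ATF6), -0.087 to 0.16 (CALR), -0.012 to 0.10 (CANX), -0.23 to 0.10 (CHAC1), -0.39 to 0.21 (CRELD2), -0.58 to 0.028 (DDIT4), -0.30 to 0.11 (EDEM1), -0.062 to 0.078 (EIF2AK3), -0.22 to 0.10 (EIF2AK4), -0.47 to 0.24 (ERN1), -0.21 to 0.40 (HERPUD1), -0.079 to 0.022 (HSP90B1), -0.30 to 0.27 (HSPA5), -0.36 to 0.15 (HYOU1), -0.18 to 0.30 (MANF), -0.10 to 0.50 (MTHFD2), -0.22 to 0.012 (PDIA4), -0.36 to 0.19 (PHGDH), -0.24 to 0.43 (PSAT1), -0.22 to 0.30 (SDF2L1), -0.10 to 0.20 (SEL1L), -0.54 to 0.39 (SESN2), -0.35 to 0.22 (SHMT2), -0.58 to 0.56 (STC2), -0.17 to 0.024 (SYVN1), -0.67 to 0.62 (TRIB3), -0.14 to 0.24 (VLDLR) and -0.010 to 0.078 (XBP1).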

Other observations

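All 3 genes with an ERSE-II in the promoter window, HERPUD1, HYOU1 and SDF2L1, were lower in B212, as were 2 of the 7 genes with an ERSE, HSPA5 and CRELD2. The other 5 genes with an ERSE (XBP1, HSP90B1, CALR, CANX and PDIA6) did not pass the threshold. Of the 4 genes with a CARE, ASNS and HERPUD1 were lower, and CHAC1 and ATF3 did not pass the threshold. Among the 38 genes 60.5% were lower, and among all genes 25.8%. These counts were made after the values were seen, over few genes, and no test was made of them.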
